A study of Homo sapiens with 6 samples.

Results

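The 8 genes described here are PTPN11, PRPF19, SOS1, GRB2, GAB1, NRAS, HRAS and BRAF. All but PRPF19, a member of the splicing machinery, help to carry a growth signal from receptors at the cell surface to the ERK kinases. They were chosen by name, as the rows of the deposited tables that carry these symbols, so 8 of 50550 rows are described. The values come from RNA sequencing of the U2OS line, established from a human osteosarcoma. The labels give 3 Lv_LINC00673 libraries, which the series' design text describes as derivatives with the long non-coding RNA LINC00673 knocked down, and 3 Lv_NC libraries. What NC stands for is not spelled out and the design text speaks of wild-type cells, so an effect of the vector alone cannot be told apart from one of the knockdown. Both groups are the same cell line, and the sources used here give neither the sequence of the knockdown construct nor the number of clones. Whether the 3 libraries of a group stem from separate cultures is not recorded. The p-values therefore rest on library-to-library spread that may be purely technical.

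When a growth factor binds its receptor, the adaptor GRB2 and the docking protein GAB1 gather at the receptor and bring in the exchange factor SOS1, which loads RAS proteins such as HRAS and NRAS with GTP. PTPN11 encodes SHP2, a tyrosine phosphatase that binds GAB1 and is needed for full activation of RAS. Active RAS recruits RAF kinases such as BRAF, which phosphorylate the MEK kinases, and these phosphorylate ERK. PRPF19 is a ubiquitin ligase of the spliceosome. In pancreatic cancer cells LINC00673 has been described as strengthening the contact of PRPF19 with PTPN11 and with it the breakdown of the PTPN11 protein. The libraries hold RNA only and say nothing of protein level, ubiquitin or phosphorylation.

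Total counts were 71237493, 61815841 and 63937475 in the Lv_LINC00673 libraries and 81148605, 87227980 and 76814723 in the Lv_NC libraries. LINC00673, the targeted RNA, had 6.55, 6.23 and 6.38 CPM (reads per library scaled to the same total by the TMM method) in Lv_LINC00673, against 9.16, 9.27 and 7.08 CPM in Lv_NC. The groups did not overlap, and the fold change was -0.41 on the log2 scale (SE 0.16), which did not pass (edgeR, quasi-likelihood, adjusted p = 0.0924, where 0.05 is the threshold throughout). Of the 12 markers of bone-forming and mesenchymal cells looked at, 7 exceeded 1 CPM, with VIM the most abundant, while SP7, BGLAP, IBSP and COL1A2 were near 0 and TWIST1 was at 0. Their summed level was 3192 to 3558 CPM in Lv_LINC00673 and 2768 to 2987 CPM in Lv_NC. The 8 blood and immune markers summed to 1.45 to 1.74 CPM in Lv_LINC00673 and 0.699 to 1.09 CPM in Lv_NC. The 5 endothelial markers summed to 5.32 to 6.59 CPM in Lv_LINC00673 and 4.02 to 4.37 CPM in Lv_NC. The 6 epithelial markers summed to 4.44 to 5.26 CPM in Lv_LINC00673 and 3.79 to 4.25 CPM in Lv_NC. The 7 neural and muscle markers summed to 49.7 to 54.0 CPM in Lv_LINC00673 and 48.3 to 53.9 CPM in Lv_NC.

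Of the 8 genes, 5 passed the test. PTPN11, SOS1, GAB1 and BRAF were higher in Lv_LINC00673, by 1.55-fold to 3.10-fold, and PRPF19 was lower. GRB2, NRAS and HRAS did not pass. All 8 genes passed the filter on low counts. Over all 21933 rows tested, 26.8% passed, 14.3% higher and 12.5% lower in Lv_LINC00673. The groups did not overlap in CPM for the same 5 of 8 genes, beside 45.1% of all tested rows. The number of the 8 genes that passed depended on single libraries. It was 6 without Lv_LINC00673 library 1, 2 without library 2 and 1 without library 3, and it was 5, 3 and 3 without Lv_NC libraries 1, 2 and 3. Over all rows 5883 genes passed with every library, against 2716 without Lv_LINC00673 library 2, 2830 without library 3, 3631 without Lv_NC library 2 and 2913 without its library 3. SOS1 passed whichever library was left out. Of all rows that passed, 53.5% were higher in Lv_LINC00673; the share was 76.8% with library totals in place of TMM factors and 74.3% for log2(FPKM + 1), and the 8 genes kept 4 higher and 1 lower in both. The median log2 fold change of all rows was 0.05 with TMM factors and 0.22 with library totals.

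**Figure D1:**
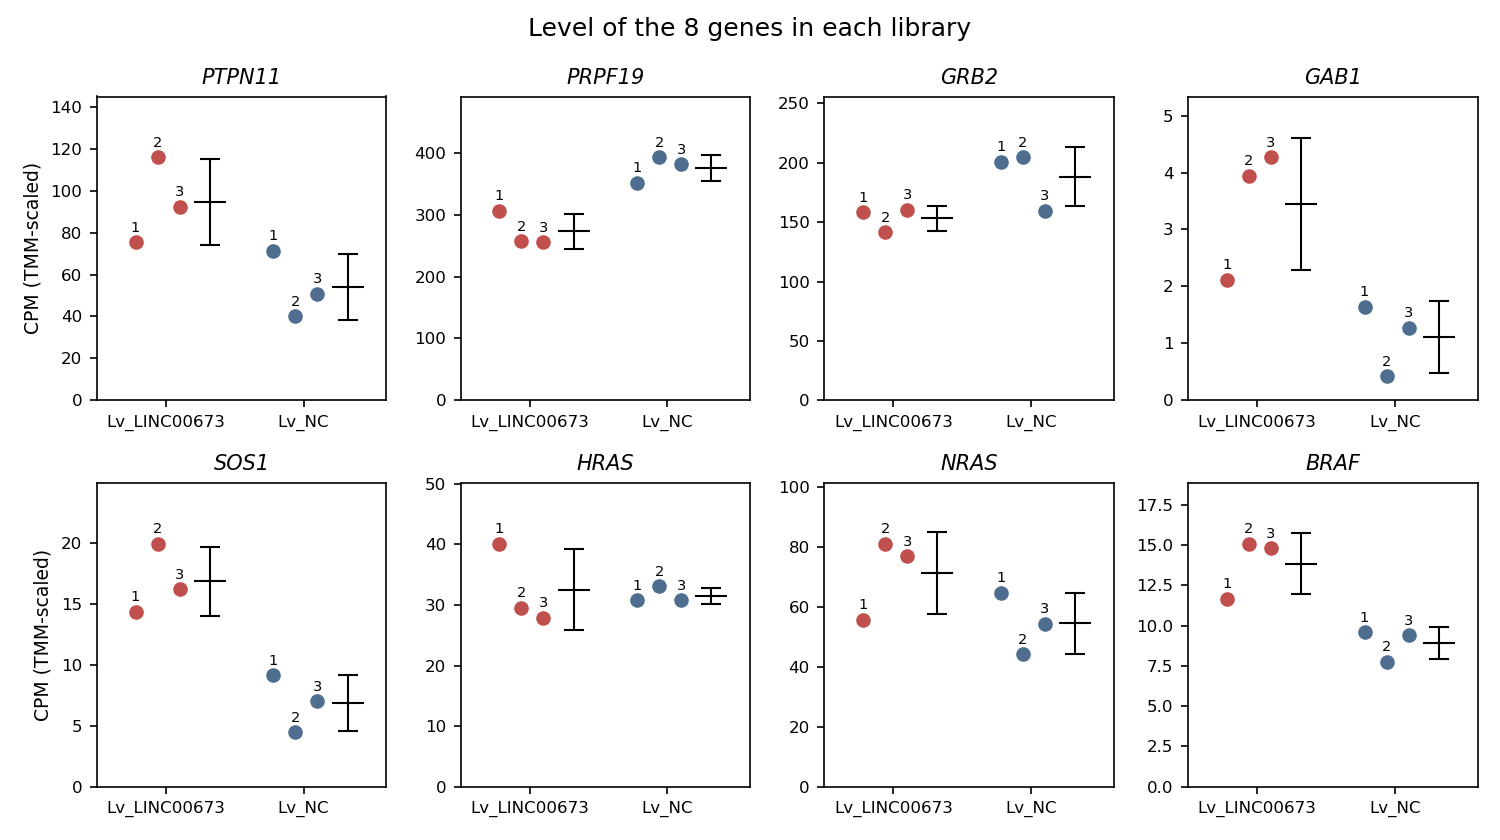
Level of each of the 8 genes in every library, in TMM-scaled CPM on a linear axis that starts at 0. Points are libraries, numbered 1 to 3 within Lv_LINC00673 (red) and Lv_NC (blue), and the bar beside them is the mean with its SD (n = 3 each); the groups do not overlap for PTPN11, PRPF19, GAB1, SOS1 and BRAF.

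The libraries also differed in base composition. For each library, the median deviation of the GC-poorest decile of genes minus that of the GC-richest decile was taken. This used 11084 genes with a mean log2 CPM over 2. The difference was -0.02, 0.76 and 0.58 on the log2 scale in Lv_LINC00673 and -0.11, -0.85 and -0.34 in Lv_NC. The same difference between the longest and the shortest decile was 0.22, 0.65 and 0.43 in Lv_LINC00673 and -0.26, -0.66 and -0.37 in Lv_NC. Every Lv_LINC00673 library therefore lay above every Lv_NC library in both, and the 2 libraries numbered 1 lay close together in GC balance. The genes described here differ widely in GC content. The longest transcripts of SOS1, GAB1, NRAS, BRAF and PTPN11 hold 37.8, 38.4, 38.4, 40.0 and 42.2% GC, and those of GRB2, PRPF19 and HRAS hold 52.3, 56.6 and 65.8%. A second fit with an offset for GC content and length in each library was therefore set beside the first. Both balances separated the groups, so the offset can also remove a group difference that runs with GC content or length. Whether it did so was not tested. The second fit was run on the 16563 tested rows with a GC content and a length, 75.5% of those tested. It describes those rows alone, and all 8 genes were among them. In that fit 32.5% of rows passed, 16.6% higher and 15.9% lower, against 33.7% of the same rows without the offset. Of the 8 genes 2 passed, SOS1 and HRAS, both higher in Lv_LINC00673. HRAS passed on the row of that name alone. With its numbered copy row added, the log2 fold change with the offset was 0.02 (edgeR adjusted p = 0.892).

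**Figure D2:**
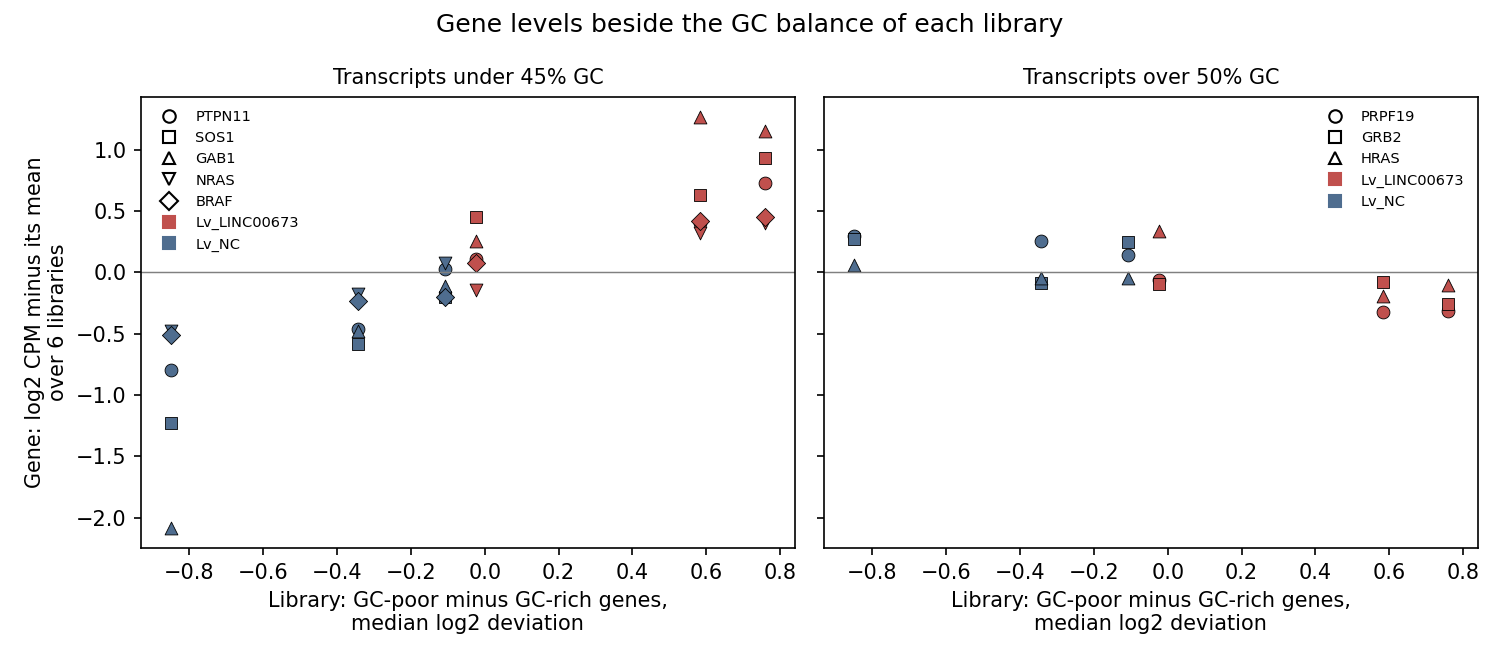
Level of each gene in each library (log2 CPM minus its mean over the 6 libraries, vertical axis) beside the GC balance of that library (GC-poor minus GC-rich genes, median log2 deviation, horizontal axis), with Lv_LINC00673 in red and Lv_NC in blue. The 5 GC-poor genes on the left are lowest in Lv_NC library 2, at a balance of -0.85, and high in Lv_LINC00673 libraries 2 and 3, at 0.76 and 0.58, while PRPF19 on the right shows the opposite order.

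PTPN11, the gene of SHP2 (chromosome 12, 112418947 to 112509918 in GRCh38.p14), was higher in Lv_LINC00673. It had 75.4, 116 and 92.3 CPM in Lv_LINC00673, against 71.4, 40.3 and 50.9 CPM in Lv_NC. The groups did not overlap, but Lv_LINC00673 library 1 and Lv_NC library 1 lay next to each other. The mean was 94.6 ± 20.4 CPM in Lv_LINC00673 and 54.2 ± 15.8 CPM in Lv_NC (SD, n = 3 each), a 1.75-fold difference (95% interval 1.23 to 2.47; log2 fold change 0.80, SE 0.22, edgeR adjusted p = 0.0286). The call was lost when Lv_LINC00673 library 2 (0.61, adjusted p = 0.103) or 3 (0.82, 0.0777) was left out, and likewise for Lv_NC library 2 (0.62, 0.0678) or 3 (0.76, 0.101). In the fit with the GC and length offset it was 0.29 (SE 0.11, adjusted p = 0.0803; 95% interval 0.03 to 0.55). Among 144 genes of the same GC and length deciles the median log2 fold change was 0.53, and 63.2% of them lay below PTPN11. Exons of PTPN11 share 111 bases with RPL6, a ribosomal protein gene on the opposite strand, and reads there cannot be told apart because the strand setting of the counting is unknown here. RPL6 had 639, 819 and 763 CPM in Lv_LINC00673, against 714, 543 and 740 CPM in Lv_NC (log2 fold change 0.15, adjusted p = 0.446), and its groups overlapped.

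PRPF19, the ubiquitin ligase (chromosome 11, 60890547 to 60906585), was the most abundant of the 8 genes and was lower in Lv_LINC00673. Its level was 306, 257 and 255 CPM in Lv_LINC00673, against 352, 393 and 382 CPM in Lv_NC. Every Lv_LINC00673 library lay below every Lv_NC library, and again the 2 libraries numbered 1 were the nearest. The mean was 273 ± 28.8 CPM in Lv_LINC00673 and 375 ± 21.2 CPM in Lv_NC (SD, n = 3 each), or 0.727-fold (95% interval 0.623 to 0.847; log2 fold change -0.46, SE 0.10, edgeR adjusted p = 0.0117). Without Lv_LINC00673 library 3 the call was lost (-0.42, adjusted p = 0.0554). With the offset it was -0.11 (SE 0.05, adjusted p = 0.120). The 137 genes of its GC and length deciles had a median of -0.38, and 35.0% of them lay below PRPF19.

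The balance of the pair can be read per length from the deposited FPKM values, which are scaled to gene length and library size. PTPN11 made up 9.29, 14.8 and 13.0% of the summed FPKM of PTPN11 and PRPF19 in Lv_LINC00673, against 7.45, 3.93 and 4.91% in Lv_NC. The groups did not overlap, with means of 12.4 ± 2.83% in Lv_LINC00673 and 5.43 ± 1.82% in Lv_NC (SD, n = 3 each). The two-sided exact permutation test gave p = 0.1, the smallest value that 3 against 3 libraries allow, and 0.233 after adjustment over the 7 shares tested. FPKM is not scaled for GC content, in which PTPN11 (42.2%) and PRPF19 (56.6%) differ. The shares of the 6 libraries ran in the same order as their GC balance. With the offset neither gene passed, at 0.29 for PTPN11 and -0.11 for PRPF19. A difference in this share apart from base composition was not tested.

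GRB2, the adaptor that links receptors to SOS proteins (chromosome 17, 75318076 to 75405678), did not pass. It had 158, 141 and 161 CPM in Lv_LINC00673, against 201, 205 and 160 CPM in Lv_NC. Lv_NC library 3 lay within the Lv_LINC00673 values. The log2 fold change was -0.30 (SE 0.11, edgeR adjusted p = 0.0873) and passed without Lv_NC library 3 (-0.41, adjusted p = 0.0449). With the offset it was -0.18 (adjusted p = 0.175).

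GAB1, the docking protein that binds SHP2 (chromosome 4, 143336876 to 143474565), was the least abundant of the 8 genes and had the widest difference. It had 155, 264 and 291 counts in Lv_LINC00673, against 127, 34 and 93 counts in Lv_NC. In scaled units this was 2.12, 3.94 and 4.27 CPM in Lv_LINC00673, against 1.64, 0.420 and 1.28 CPM in Lv_NC. The groups did not overlap, and Lv_NC library 2 stood far below the rest. The fold change was 3.10 (95% interval 1.48 to 6.49; log2 fold change 1.63, SE 0.47, edgeR adjusted p = 0.0340). The gene no longer passed without Lv_LINC00673 library 2 (1.51, adjusted p = 0.101) or 3 (1.44, 0.112), or without Lv_NC library 3 (1.74, 0.0866). With the offset it was 0.90 (SE 0.35, adjusted p = 0.0759; 95% interval 0.12 to 1.67). Of 216 genes in the same GC and length deciles, with a median of 0.79, 95.8% lay below GAB1. These genes all had a mean log2 CPM over 2, which GAB1 itself did not reach, so its rank is among better-counted genes. Its relative GAB2 had 39.9, 41.9 and 38.3 CPM in Lv_LINC00673, against 44.3, 45.6 and 46.7 CPM in Lv_NC. The GAB2 groups did not overlap, yet its log2 fold change of -0.19 did not pass (adjusted p = 0.172). Per length, and without a correction for GC content, GAB1 was 6.11 ± 1.91% of the summed FPKM of both genes in Lv_LINC00673 and 1.79 ± 1.04% in Lv_NC (SD, n = 3 each; exact permutation p = 0.1, adjusted 0.233).

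SOS1, the exchange factor (chromosome 2, 38981549 to 39124868), was higher in Lv_LINC00673 in both fits. It had 14.4, 19.9 and 16.2 CPM in Lv_LINC00673, against 9.11, 4.47 and 7.01 CPM in Lv_NC. All Lv_LINC00673 libraries lay well above all Lv_NC libraries, including the 2 numbered 1. The mean was 16.8 ± 2.84 CPM in Lv_LINC00673 and 6.86 ± 2.32 CPM in Lv_NC (SD, n = 3 each), a 2.45-fold difference (95% interval 1.63 to 3.68; log2 fold change 1.29, SE 0.26, edgeR adjusted p = 0.00973). With the offset it was 0.52 (SE 0.13, adjusted p = 0.0158; 95% interval 0.22 to 0.82). The 215 genes of its GC and length deciles had a median of 0.79, and 77.7% of them lay below SOS1.

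SOS2, the other SOS exchange factor, was higher as well. It had 9.25, 15.1 and 11.4 CPM in Lv_LINC00673, against 5.80, 5.44 and 4.81 CPM in Lv_NC, without overlap (log2 fold change 1.15, SE 0.20, edgeR adjusted p = 0.00721). With the offset it was 0.53 (adjusted p = 0.0290). SOS1 took 48.5 ± 3.37% of the summed FPKM of both genes in Lv_LINC00673 and 43.5 ± 8.52% in Lv_NC (SD, n = 3 each), and these groups overlapped (exact permutation p = 0.6).

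**Figure D3:**
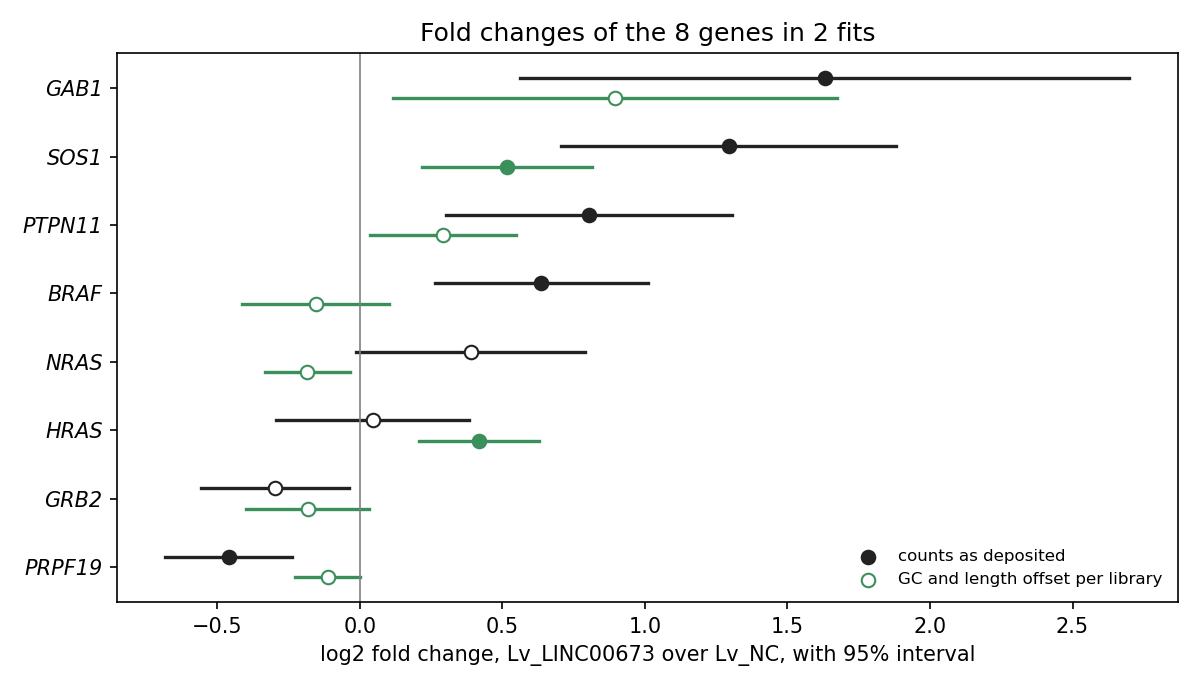
Log2 fold change of each gene, Lv_LINC00673 over Lv_NC, with its 95% interval, from the counts as deposited (black) and with an offset for GC content and length in each library (green). Filled points passed an adjusted p of 0.05. SOS1 is the single gene filled in both, and NRAS and BRAF lie on opposite sides of 0 in the 2 fits. HRAS is shown for the row of that name alone, and it did not pass with its numbered copy row added.

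HRAS (chromosome 11, 532242 to 535576) is the single member with a numbered copy row in the deposited tables, and both rows carry reads. The row named HRAS had 40.2, 29.5 and 27.9 CPM in Lv_LINC00673, against 30.8, 33.1 and 30.8 CPM in Lv_NC. These groups overlapped, and Lv_LINC00673 library 1 was the highest of all (log2 fold change 0.04, SE 0.15, edgeR adjusted p = 0.854). The sign turned without that library (-0.15, adjusted p = 0.359). The numbered copy row had 11.8, 11.9 and 17.6 CPM in Lv_LINC00673, against 30.1, 32.6 and 21.0 CPM in Lv_NC, without overlap (log2 fold change -1.02, SE 0.22, adjusted p = 0.0118).

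The HRAS row held 77.3, 71.2 and 61.4% of the counts of both rows in Lv_LINC00673, against 50.6, 50.4 and 59.5% in Lv_NC. These shares did not overlap between the groups, though 61.4% in Lv_LINC00673 library 3 and 59.5% in Lv_NC library 3 lay close. A difference in the split was not tested, and the value on either row alone depends on the split. The sources used here do not say how the authors' counting divided reads between both rows. With both rows summed the log2 fold change was -0.36 (SE 0.13, edgeR adjusted p = 0.0536; 95% interval -0.64 to -0.08). On the HRAS row alone the offset gave 0.42 (SE 0.09, adjusted p = 0.00894), which passed, and on the summed rows it gave 0.02 (SE 0.08, adjusted p = 0.892). HRAS lies in a run of 16 neighbouring genes with a copy row each, PTDSS2 to DEAF1, among 2698 symbols with 5054 copy rows in the tables. Of the 6 genes of the run with at least 1000 counts in every library, 2 had splits that did not overlap between the groups, HRAS and DEAF1. The same held for 54 of all 435 symbols with copy rows at that depth, or 12.4%.

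**Figure D4:**
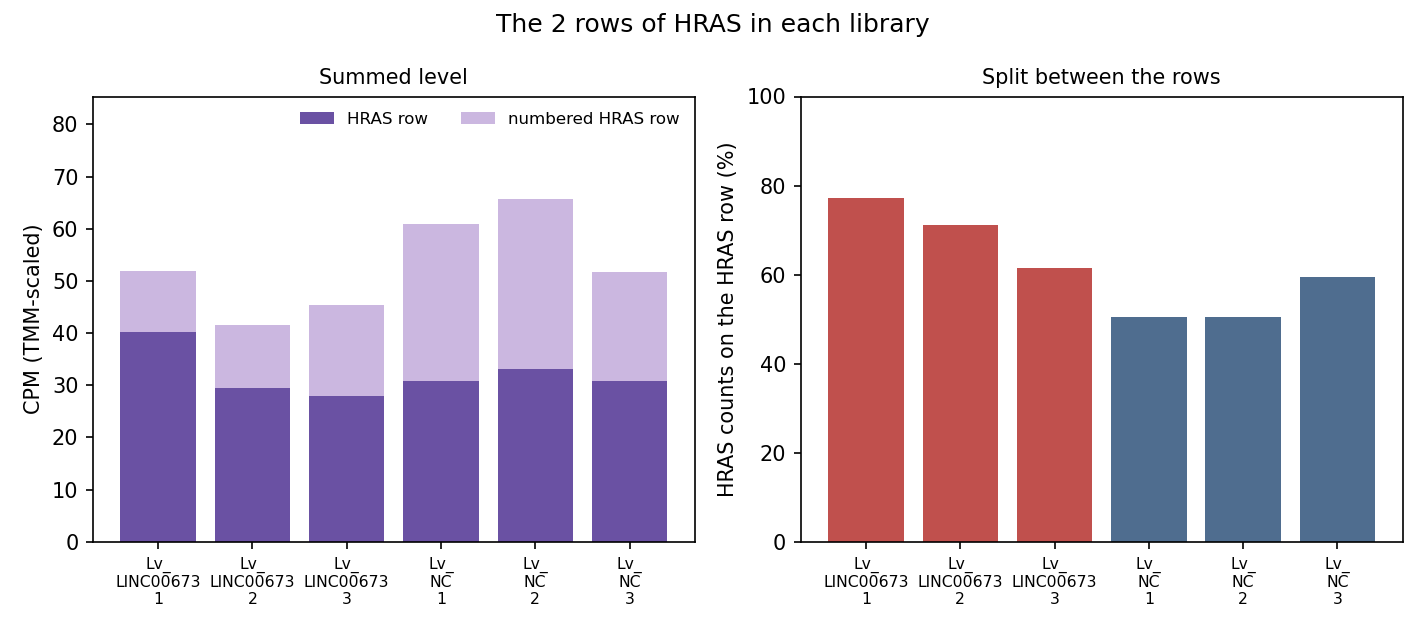
The HRAS row and the numbered HRAS row in each library, with Lv_LINC00673 on the left of Lv_NC. Stacked bars give the level of both rows in TMM-scaled CPM, and single bars give the share of HRAS counts on the HRAS row, which is 61.4 to 77.3% in Lv_LINC00673 and 50.4 to 59.5% in Lv_NC.

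NRAS (chromosome 1, 114704469 to 114716771) did not pass. It had 55.7, 81.1 and 77.0 CPM in Lv_LINC00673, against 64.7, 44.3 and 54.4 CPM in Lv_NC. Lv_LINC00673 library 1 lay within the Lv_NC values and the other two above them. The log2 fold change was 0.39 (SE 0.18, edgeR adjusted p = 0.136) and passed without Lv_LINC00673 library 1 (0.53, adjusted p = 0.0360). With the offset the sign turned, at -0.19 (SE 0.07, adjusted p = 0.0589). Its 140 neighbours in GC content and length had a median of 0.59.

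BRAF, the RAF kinase with the strongest basal activity (chromosome 7, 140713328 to 140924929), was higher in Lv_LINC00673 in the counts as deposited. It had 11.7, 15.1 and 14.8 CPM in Lv_LINC00673, against 9.60, 7.75 and 9.39 CPM in Lv_NC. The groups did not overlap. The difference was 1.55-fold (95% interval 1.20 to 2.01; log2 fold change 0.64, SE 0.16, edgeR adjusted p = 0.0231). Leaving out Lv_LINC00673 library 2 (0.55, adjusted p = 0.0872) or 3 (0.58, 0.0936) ended the call, as did leaving out Lv_NC library 2 (0.54, 0.0712) or 3 (0.67, 0.0656). With the offset the sign turned, at -0.15 (SE 0.12, adjusted p = 0.340). BRAF was below the median of 0.83 for the 185 genes of its GC and length deciles.

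BRAF shares 1239 exonic bases with NDUFB2, a gene of mitochondrial complex I on the opposite strand. Reads there cannot be told apart either, because the strand setting of the counting is unknown here. How far the overlap affects the BRAF counts was not tested. NDUFB2 had 36.3, 35.0 and 33.9 CPM in Lv_LINC00673, against 45.1, 48.0 and 41.8 CPM in Lv_NC, and so lay in the opposite direction to BRAF (log2 fold change -0.36, edgeR adjusted p = 0.0293). ARAF, another RAF kinase, did not pass. It had 94.1 ± 10.3 CPM in Lv_LINC00673 and 113 ± 9.37 CPM in Lv_NC (SD, n = 3 each; log2 fold change -0.27, adjusted p = 0.102).

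Per length, PRPF19 was the most abundant gene and GAB1 the least in both groups. In FPKM, PRPF19 averaged 119 ± 9.25 in Lv_LINC00673 and 146 ± 6.54 in Lv_NC, and GRB2 averaged 47.7 ± 2.67 in Lv_LINC00673 and 52.4 ± 6.75 in Lv_NC (SD, n = 3 each, also below). HRAS followed at 29.8 ± 5.46 FPKM in Lv_LINC00673 and 25.8 ± 0.866 FPKM in Lv_NC, on its own row. Its numbered copy row averaged a further 12.3 FPKM in Lv_LINC00673 and 22.8 FPKM in Lv_NC. The place of HRAS after GRB2, and its higher mean in Lv_LINC00673, therefore hold for the HRAS row alone. The order with both rows added was not tested. NRAS and PTPN11 could not be ordered, since their ranges overlapped in both groups: NRAS had 16.8 ± 3.63 FPKM in Lv_LINC00673 and 11.5 ± 2.30 FPKM in Lv_NC, and PTPN11 had 16.6 ± 3.37 FPKM in Lv_LINC00673 and 8.34 ± 2.56 FPKM in Lv_NC. SOS1 and BRAF could not be ordered either, with 2.06 ± 0.406 and 1.56 ± 0.265 FPKM in Lv_LINC00673 and 0.703 ± 0.247 and 0.889 ± 0.0726 FPKM in Lv_NC. GAB1 was lowest, at 0.437 ± 0.150 FPKM in Lv_LINC00673 and 0.124 ± 0.0726 FPKM in Lv_NC. A lower level in a bulk library can mean fewer cells with the RNA or less RNA per cell, which cannot be told apart here.

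The 2 libraries nearest to each other in GC balance were Lv_LINC00673 library 1 at -0.02 and Lv_NC library 1 at -0.11, though their length balance was 0.22 in Lv_LINC00673 and -0.26 in Lv_NC. Read in this pair alone, without a test, PTPN11 had 75.4 CPM in Lv_LINC00673 and 71.4 CPM in Lv_NC, and PRPF19 had 306 CPM in Lv_LINC00673 and 352 CPM in Lv_NC. SOS1 had 14.4 CPM in Lv_LINC00673 and 9.11 CPM in Lv_NC, the widest ratio of the 8 genes in this pair. GAB1 had 2.12 CPM in Lv_LINC00673 and 1.64 CPM in Lv_NC, BRAF had 11.7 CPM in Lv_LINC00673 and 9.60 CPM in Lv_NC, and the HRAS row had 40.2 CPM in Lv_LINC00673 and 30.8 CPM in Lv_NC. PTPN11, SOS1, GAB1, BRAF and the HRAS row were thus the higher of the pair in Lv_LINC00673, and PRPF19, GRB2 and NRAS the lower. With both HRAS rows summed, the level was 52.0 CPM in Lv_LINC00673 and 60.8 CPM in Lv_NC, and so lower in Lv_LINC00673. GRB2 had 158 CPM in Lv_LINC00673 and 201 CPM in Lv_NC, and NRAS had 55.7 CPM in Lv_LINC00673 and 64.7 CPM in Lv_NC.

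Kinases below RAF, and SRC, were looked at by name. MAP2K1, encoding MEK1, was lower in Lv_LINC00673 in both fits, with 149, 143 and 157 CPM in Lv_LINC00673, against 215, 200 and 190 CPM in Lv_NC (log2 fold change -0.43, SE 0.09, edgeR adjusted p = 0.00980; -0.35 with the offset, adjusted p = 0.00357). MAP2K2, encoding MEK2, was lower as well, with 164 ± 18.1 CPM in Lv_LINC00673 and 219 ± 23.7 CPM in Lv_NC (-0.42, adjusted p = 0.0286), and was -0.07 with the offset (adjusted p = 0.350). MAPK3, encoding ERK1, did not pass in either fit (-0.30, adjusted p = 0.0796; -0.01 with the offset, adjusted p = 0.929). SRC, a kinase whose activity SHP2 favours, had 83.1 ± 9.94 CPM in Lv_LINC00673 and 103 ± 7.80 CPM in Lv_NC; it did not pass (-0.32, adjusted p = 0.0643) and passed as lower with the offset (-0.21, adjusted p = 0.0327).

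The 10 lists of other pathway genes and PRPF19 partners were then counted. Of their 116 tested genes, 29 were higher and 22 lower in Lv_LINC00673, with a median log2 fold change of 0.07 beside 0.05 over all tested rows. The 51 that passed are 44.0% of the lists, beside 26.8% of all tested rows (14.3% higher and 12.5% lower) and 33.7% of the rows with a known GC content and length. A stricter cut on low counts kept 16080 rows, of which 5858 passed, with 52 list genes among them. With the offset 25 list genes were higher and 23 lower, which is 41.4% beside 32.5% of the rows in that fit, with a median of 0.03. The lists were chosen with earlier results of these data known, so these shares cannot show an excess in the pathway. The 51 genes that passed were 24 without Lv_LINC00673 library 2, 25 without library 3, 30 without Lv_NC library 2 and 24 without its library 3. With library totals alone 40 were higher and 10 lower, so the split of each list below holds for TMM factors. The next counts cover 33 list genes named here as higher or lower, without those named after their values were seen. Of these 33, 15 passed whichever library was left out: SOS2, CBL, CBLB, NF1, RASA1, IQGAP1, MAP2K1, RPS6KA5, ERF, EPHA2, SPRY2, CSK, CDC5L, AQR and CWC22. All others fell short in at least 1 of these 6 fits. None of the 33 changed sign when a library was left out or under the other scalings, and 20 passed in the same direction with the offset.

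Among 15 tested adaptors and docking proteins, 3 were higher and 1 lower. FRS2, which docks GRB2 and SHP2 at FGF receptors, rose (log2 fold change 1.16, SE 0.34, edgeR adjusted p = 0.0343), as did the ubiquitin ligases CBL (0.82, SE 0.15) and CBLB (0.96, SE 0.20). SHC1, an adaptor for GRB2, fell (-0.36, SE 0.09). CBL and SHC1 passed in the same direction with the offset, at 0.33 and -0.15, and FRS2 (0.43) and CBLB (0.36) did not pass. With the offset 3 of the 15 were higher and 2 lower. Among the 8 other RAS exchange factors, 3 were higher and 1 lower, and after SOS2 the named ones were RASGRP1 (0.99), RASGRF1 (0.46) and, lower, RASGRP4 (-0.93). RASGRF1, a calcium-responsive factor, passed with the offset too, at 0.40 (adjusted p = 0.00478), and RASGRP1 (0.55) and RASGRP4 (-0.69) did not pass.

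Of 14 tested negative regulators of RAS, 4 were higher and 1 was lower. NF1, encoding the RAS GTPase-activating protein neurofibromin, had 49.1 ± 11.9 CPM in Lv_LINC00673 and 19.7 ± 7.21 CPM in Lv_NC (SD, n = 3 each; log2 fold change 1.32, SE 0.26, edgeR adjusted p = 0.00982). RASA1, RASA2 and RASAL2, all GTPase-activating proteins, rose by 1.07, 0.98 and 1.01 on the log2 scale. With the offset, NF1 (0.57) and RASA1 (0.56) were the 2 that passed as higher, while RASA2 (0.31) and RASAL2 (0.21) did not pass and 2 other genes of the list were lower.

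Of 16 scaffolds and RAF regulators, 4 were higher and 4 lower. IQGAP1, a scaffold that binds MEK and ERK, had 89.2 ± 16.1 CPM in Lv_LINC00673 and 27.9 ± 8.35 CPM in Lv_NC (SD, n = 3 each; log2 fold change 1.67, SE 0.21, edgeR adjusted p = 0.00394), and it kept 1.19 with the offset (adjusted p = 0.000425). SHOC2 and PPP1CB, whose proteins form a phosphatase that frees RAF from its inhibited state, rose by 1.02 and 0.94, and KSR2 rose by 0.80. SHOC2 (0.48) and PPP1CB (0.35) passed with the offset, and KSR2 did not (0.42, edgeR adjusted p = 0.240). PPP1CA and PPP1CC, relatives of PPP1CB in this list, did not pass as higher. PPP1CA, at 300 ± 23.3 CPM in Lv_LINC00673 and 393 ± 13.4 CPM in Lv_NC, passed as lower (-0.39, edgeR adjusted p = 0.0130) and was 0.02 with the offset. PPP1CC did not pass (0.02) and passed as lower with the offset (-0.30, edgeR adjusted p = 0.00894). PEA15, PEBP1 and LAMTOR2 were the other lower genes, at -0.58, -0.50 and -0.43 (edgeR adjusted p = 0.00640, 0.00643 and 0.0364). PEA15 passed as lower with the offset too (-0.39, edgeR adjusted p = 0.00375), and PEBP1 (-0.14) and LAMTOR2 (0.04) did not pass. With the offset 5 of the 16 were higher and 3 lower.

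ERK substrates had 3 of 12 higher and 2 lower, and with the offset 1 was lower and none higher. ERF, a repressor that ERK removes from the nucleus, had 108 ± 10.2 CPM in Lv_LINC00673 and 223 ± 47.4 CPM in Lv_NC (SD, n = 3 each; log2 fold change -1.05, SE 0.15, edgeR adjusted p = 0.00450), and was -0.79 with the offset. The 3 that rose, RPS6KA6 (1.09), RPS6KA5 (0.95) and ELK4 (0.87), lay at 0.29, -0.08 and 0.01 with the offset, and none of these passed. Among 9 genes that ERK signalling is known to induce, 1 was higher and 3 lower. EPHA2, a receptor kinase, fell by 0.81 (SE 0.12), SPRY2, a feedback inhibitor, fell by 0.63 (SE 0.11), and ETV4, a transcription factor, fell by 0.35. EPHA4 rose by 1.32 (SE 0.28). With the offset 1 of the 9 was higher and 4 lower. EPHA2 and SPRY2 passed as lower with the offset too, at -0.66 and -0.54, and EPHA4 as higher at 0.95, while ETV4 (-0.05) did not pass. PHLDA1 (-0.51) and ETV5 (-0.22) passed as lower with the offset only.

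Of 11 SRC family kinases and SHP2 partners, 3 were higher and 1 lower. Among them PTK2, encoding focal adhesion kinase, rose by 0.84 and YES1, a SRC family kinase, by 0.71, while CSK, the kinase that inhibits the SRC family, fell by 0.46. PTK2 (0.54) and CSK (-0.21) passed with the offset, and YES1 did not (0.12, edgeR adjusted p = 0.276). With the offset 3 of the 11 were higher and 3 lower. YES1 also did not pass without Lv_LINC00673 library 2 or 3 or without Lv_NC library 2 or 3, and PTK2 did not without Lv_LINC00673 library 2 or 3 or Lv_NC library 3. Of 19 genes of the PRPF19 complex and its spliceosome partners, 6 were higher and 6 lower, and with library totals 8 were higher and 2 lower. CDC5L, a core subunit of the complex, had 32.7 ± 5.19 CPM in Lv_LINC00673 and 14.0 ± 3.19 CPM in Lv_NC (SD, n = 3 each; log2 fold change 1.22, SE 0.19, edgeR adjusted p = 0.00534). The spliceosome factors AQR, CWC22 and CRNKL1 rose by 1.43, 1.26 and 0.95. All 4 passed as higher with the offset, at 0.54 for CDC5L, 0.65 for AQR, 0.82 for CWC22 and 0.52 for CRNKL1. Among the 6 lower genes were PPIL1 (-0.52), ISY1 (-0.50) and CTNNBL1 (-0.48). PPIL1 (-0.46) and ISY1 (-0.34) passed as lower with the offset too, and CTNNBL1 (-0.21) did not pass. PLRG1, another gene of the list, was 0.05 and passed as lower with the offset (-0.39, edgeR adjusted p = 0.00266). With the offset 9 of the 19 were higher and 4 lower.

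**Figure D5:**
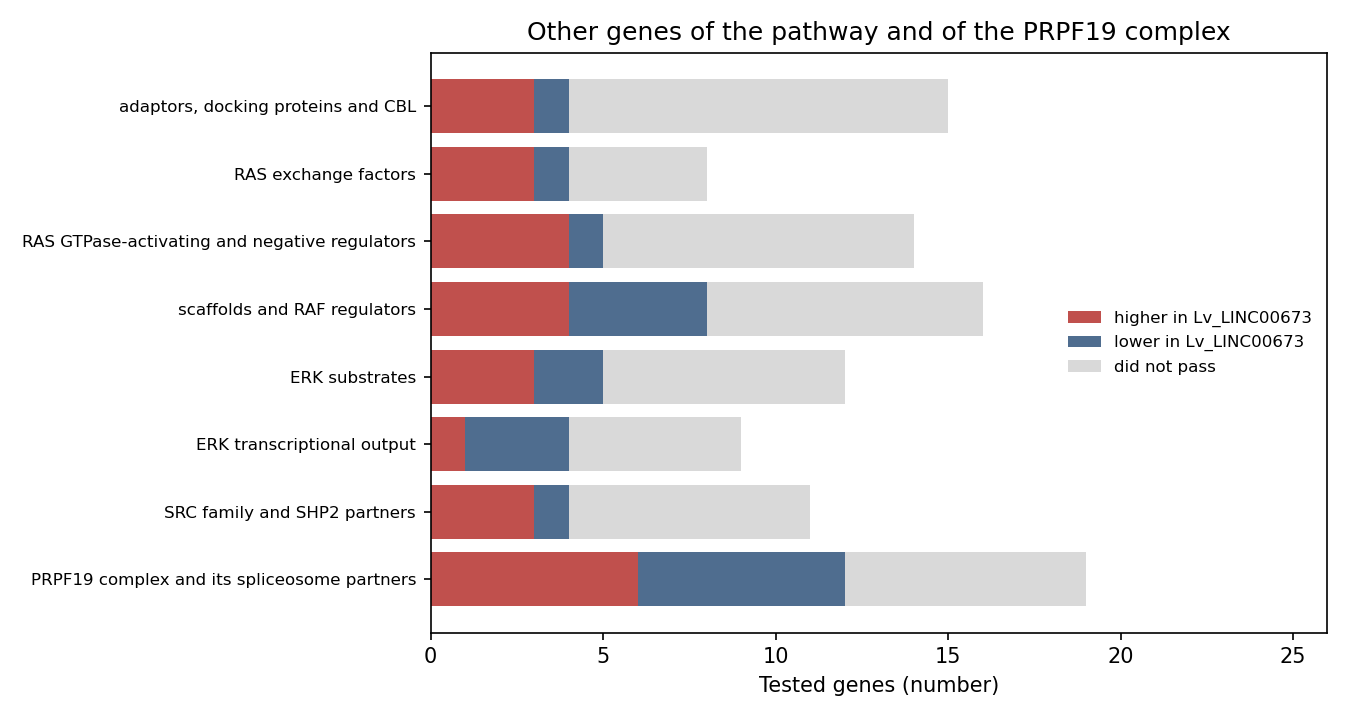
Number of tested genes in each of 8 lists of the 10 counted (horizontal axis) that were higher in Lv_LINC00673 (red), lower in Lv_LINC00673 (blue) or did not pass an adjusted p of 0.05 (grey), from the counts as deposited. The PRPF19 complex and its partners hold 6 higher and 6 lower genes of 19, and the genes that ERK signalling induces 1 higher and 3 lower of 9.

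Finally, each gene was set beside 8998 other genes (8999 for GAB1) with a mean of at least 10 CPM, by the Pearson correlation of log2 CPM over the 6 libraries, given as a description. The points share their library and with it the depth and GC balance. The genes nearest to PTPN11 were MYSM1 and HSPA9, but 1658 genes exceeded r = 0.9 with it. For PRPF19 they were FBL and CMTM3, among 2292 such genes, and for SOS1 LARS1 and NUP153, among 1658. GAB1 lay nearest to DDHD1 and HSDL2, and BRAF to MMP16 and NHLRC2, among 1395 and 1633 such genes. NRAS lay nearest to PHTF2 and ARGLU1, among 891. GRB2 and HRAS had fewer genes alike, 259 and 24, led by PHF13 and AP2S1 for GRB2 and by INPP5J and RBM4B for HRAS.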

How the data were processed

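The authors deposited, for the 6 libraries, raw read counts per gene and FPKM values per gene, whose length model the sources used here do not give. The library kit was TruSeq RNA, per the labels' protocols, and the genome build was hg38 per the submitters' processing notes; the sources used here name no aligner, counter, annotation or strand setting. Every column was matched to a library by its name. Rows without a symbol (6056 of 50550, 3.22 to 4.26% of counts) stayed in library sizes and tests and are not named.

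Counts were tested with edgeR 4.0.16 in R 4.3.3 (quasi-likelihood, robust, TMM factors, filterByExpr), with p-values adjusted by Benjamini and Hochberg over all 21933 tested rows. GC content and length came from the longest GENCODE release 29 transcript of a symbol and entered the offset fit as smooth curves per library (mgcv 1.9.3); only 75.5% of all tested rows had both, under the 80% needed, so as a check of all rows it is void, while all 8 genes and every tested list gene had them. Positions come from RefSeq (GRCh38.p14, 1-based). Shares used deposited FPKM values and two-sided exact permutation tests. On simulated counts with a log2 fold change of 1 the main edgeR step recovered 98.5% of changed genes among 21599, and 7.51% of its calls were false, above the 5% that the threshold allows. The simulated counts had the same dispersion for every gene and no drift with GC content or length. These figures therefore need not hold for the libraries described here.

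The genes and lists were chosen with earlier results of these data known. Named list genes are up to 4 per list with the largest absolute log2 fold change among those that passed, beside genes named whatever their result, some of which are not reported here; genes alike are the 2 with the highest correlation. DEAF1, RPL6, NDUFB2, PPP1CA, PPP1CC, PEA15, PEBP1, LAMTOR2, PHLDA1, ETV5, PPIL1, ISY1, CTNNBL1 and PLRG1 were named after their values were seen. Alternatives were other scalings, filters, DESeq2 1.42.0, limma 3.58.1 (voom, and log2 FPKM with pseudocounts of 1 and 0.1), a replicate block, summed copy rows and each library left out.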

Additional observations from a re-analysis of the deposited data

How the results depend on the processing

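SOS1 passed in 21 of 22 alternatives. Whether libraries of the same number share a culture or preparation is not recorded. Same-numbered libraries of both groups deviated from their group means with correlations of -0.42, -0.36 and 0.04 over 12349 genes. These deviations also carry the GC and length balance of each library, so they cannot decide whether the numbers pair the libraries. The replicate block is given as an alternative. With the block 1208 rows, 8 list genes and 0 of the 8 genes passed: PTPN11 was 0.82 (adjusted p = 0.0913), PRPF19 -0.46 (0.0699), SOS1 1.34 (0.0538), GAB1 1.74 (0.0851) and BRAF 0.63 (0.0987). The block with the GC and length offset gave 3874 rows, 30 list genes and 2 of the 8, with PTPN11 at 0.30, PRPF19 -0.11, GAB1 0.97, NRAS -0.19, HRAS 0.41 and BRAF -0.15. The offset alone gave 2 of the 8, with PTPN11 at 0.29, PRPF19 -0.11, GAB1 0.90, NRAS -0.19, HRAS 0.42 and BRAF -0.15. Summing copy rows gave HRAS -0.36. Summed rows with the offset, chosen after the data were seen, gave 1 of the 8 (SOS1), with PTPN11 at 0.29, PRPF19 -0.12, GAB1 0.89, NRAS -0.19 and BRAF -0.16. The cause of these changes was not tested.

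Leaving out 1 library at a time gave 2716 to 6490 rows, 24 to 54 list genes and 1 to 6 of the 8 genes. Log2 fold changes then ranged from 0.61 to 1.05 for PTPN11, -0.57 to -0.42 for PRPF19, -0.41 to -0.24 for GRB2, 1.23 to 2.02 for GAB1, 1.06 to 1.55 for SOS1, -0.15 to 0.14 for HRAS, 0.25 to 0.53 for NRAS and 0.54 to 0.73 for BRAF. The remaining scalings, filters and tests kept the direction and the call of all 8 genes. With 3 libraries a group, the shares within gene families cannot reach an exact p under 0.1, and their direction held in each alternative run. Lengths for shares from counts came from GENCODE, since the RefSeq table holds gene spans.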
